A study of Mus musculus with 4 samples.

Results

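Monocyte_3 was the rarest of the monocyte populations in the deposited cell names for CD45+ cells of mouse melanomas, and its cells were taken here by that name alone. The deposited names hold no Monocyte_2, whereas the study's methods list a Monocyte_2 and no Monocyte_3, and whether both names stand for the same cells was not settled. Monocyte_3 comprised 63 of 33368 cells, beside 8762 cells named Monocyte_1 and 2475 named Infl_Mono. The 63 cells held 262255 UMIs, which are counted molecules after removal of PCR copies. Their defining markers were those of non-classical, patrolling monocytes, and the name was checked against 7 of them.

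The tumours came from the mouse melanoma line YUMM1.7 carrying ovalbumin as a model antigen, implanted in Rag2-/- mice, a strain without T and B lymphocytes. OT-1 T cells, whose receptor is specific for ovalbumin, were injected on day 7 and tumours were taken on day 10, which is 72 h later. Live CD45+ cells were sorted, labelled with oligonucleotide tags, pooled and loaded 3 times for droplet sequencing of transcript 3' ends. Each group was 1 sample, and none had a replicate. All groups shared the host, the T cells and the time. NTT was a clone naive to targeted therapy and RTT a clone resistant to it, RTT_ROSA26 was a resistant line with a control guide against the Rosa26 locus, and RTT_PTGS12KO was a resistant line in which Ptgs1 and Ptgs2 were knocked out in the cancer cells. The labels give 1 tumour per condition, whereas figure legends of the study describe pooled tumours, and which of them holds for these samples was not settled. The median depth over all cells was 7292.5 UMIs in NTT and 12219 to 13280 UMIs in the other samples. Because a group was 1 sample, no test was made. Intervals are 95% intervals and cover counting error only, not variation between cells or mice.

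Monocytes leave the bone marrow as classical Ly6c-high cells, which enter inflamed tissue. Some of them convert into non-classical Ly6c-low cells under the control of the nuclear receptor Nr4a1. Non-classical monocytes crawl along the inside of blood vessels, depend on the integrin Itgal and the chemokine receptor Cx3cr1 for this, and survey the endothelium for damage. Nothing in these data tells cells in tumour tissue from cells in tumour vessels.

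Monocyte_3 cells were found in NTT, RTT_PTGS12KO and RTT_ROSA26 and in none of the RTT cells. NTT held 26 of 8266 cells, or 0.315% (exact Clopper-Pearson interval, 0.206 to 0.461%). RTT_PTGS12KO held 33 of 10296 cells, or 0.321% (0.221 to 0.450%). RTT_ROSA26 held 4 of 6836 cells, or 0.0585% (0.0159 to 0.150%). In RTT, 0 of 7970 cells carried the name, which allows a share of up to 0.0376% (a limit of 3 cells). The upper end of its exact Clopper-Pearson interval was 0.0463%.

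**Figure D1:**
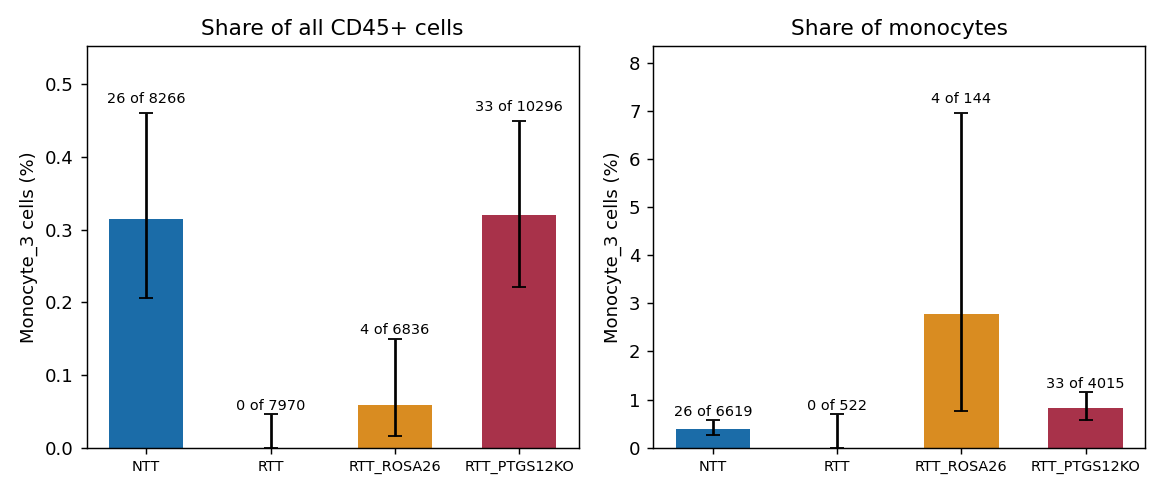
Monocyte_3 cells as a percentage of all CD45+ cells (left) and of all monocytes (right) in the 4 samples, with exact Clopper-Pearson 95% intervals as error bars and cell numbers above the bars. Among all CD45+ cells NTT (0.315%) and RTT_PTGS12KO (0.321%) stood above RTT_ROSA26 (0.0585%), whereas among monocytes RTT_ROSA26 had the highest value (2.78%).

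The share in RTT_PTGS12KO was 5.48 times that in RTT_ROSA26 (exact conditional interval, 1.95 to 21.3), and the share in NTT was 5.38 times that in RTT_ROSA26 (1.86 to 21.2). NTT and RTT_PTGS12KO differed by a ratio of 0.981 (0.564 to 1.69), which was within counting error. Against a floor of 3 cells in RTT, the point share was at least 8.36 times higher in NTT and at least 8.51 times higher in RTT_PTGS12KO, and with the counting error of both samples included the exact lower bounds were 6.33 and 6.55. These ratios rest on the name. Cells of any name with UMIs of at least 3 of the 7 defining markers made up 0.835% of RTT_PTGS12KO and 0.6% of RTT_ROSA26, a ratio of 1.39 (0.949 to 2.07), and 0.226% of RTT, a ratio of 3.70 (2.21 to 6.53) for RTT_PTGS12KO. At an equal depth of 2000 UMIs per cell such cells gave a ratio of 1.23 (0.457 to 3.65) for RTT_PTGS12KO over RTT_ROSA26 and of 1.77 (0.680 to 5.14) for NTT over RTT_ROSA26, both with intervals that include equality. Since all 4 samples were pooled before loading, the loads could be compared within samples. NTT gave 7, 7 and 12 Monocyte_3 cells in the 3 loads, RTT_PTGS12KO gave 13, 11 and 9, and RTT_ROSA26 gave 2, 2 and 0.

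This order belonged to the CD45+ compartment and not to the monocytes. There were 6619 monocytes of all names in NTT and 4015 in RTT_PTGS12KO, but 522 in RTT and 144 in RTT_ROSA26. Set against monocytes alone, Monocyte_3 reached 0.393% (0.257 to 0.575%) in NTT, 0.822% (0.566 to 1.15%) in RTT_PTGS12KO and 2.78% (0.762 to 6.96%) in RTT_ROSA26. RTT, with 0 of 522, allowed a share of up to 0.575% by the limit of 3 cells and 0.704% by the exact Clopper-Pearson interval. Both limits lie above the value in NTT. Within monocytes the share in RTT_PTGS12KO was 0.296 times that in RTT_ROSA26 (0.105 to 1.15), an interval that includes equality. That in NTT was 0.141 times that in RTT_ROSA26 (0.0491 to 0.558) and 0.478 times that in RTT_PTGS12KO (0.275 to 0.824).

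The 63 cells were shallow. Their median was 3905 UMIs (2003 to 8691) and 1409 genes per cell, against a median of 8094.5 UMIs in Monocyte_1. By sample the median was 3734 UMIs in NTT, 4256 in RTT_PTGS12KO and 3532.5 in RTT_ROSA26, the last far below the 13280 UMIs of all cells of that sample. Mitochondrial UMIs made up 1.43% and ribosomal protein UMIs 20.4% in the median cell, beside 1.76% and 18.7% in Monocyte_1.

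The defining markers were found in a larger share of these cells than of Monocyte_1 or NK cells. They are Cd300e, an activating surface receptor of myeloid cells (chromosome 11, 115051917 to 115062177, GRCm38), Adgre4, an adhesion G protein-coupled receptor (chromosome 17, 55749984 to 55853662), Treml4, a receptor of the TREM family (chromosome 17, 48264295 to 48275360), and Lilra5, an immunoglobulin-like receptor (chromosome 7, 4237754 to 4243463). The others are Ace, angiotensin-converting enzyme (chromosome 11, 105967945 to 105989964), Pou2f2, an octamer-binding transcription factor (chromosome 7, 25087344 to 25179726), and Ear2, a secreted ribonuclease (chromosome 14, 44102654 to 44103534). All 7 are annotated as protein coding. Levels are given as CPM, in which the UMIs of a gene, summed over the cells of one name in one sample, are scaled to the same total, with exact Poisson intervals in parentheses. Ear2 and Lilra5 belong to families of similar genes, among which reads may be split.

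Cd300e reached 332 CPM (231 to 462) in NTT, 176 CPM (114 to 259.6) in RTT_PTGS12KO and 135 CPM (2 UMIs) in RTT_ROSA26, against 1.21 and 1.12 CPM in Monocyte_1 of NTT and RTT_PTGS12KO. Adgre4 reached 199 CPM (123 to 305), 155 CPM (97.0 to 234) and 473 CPM in the same order, against 3.46 and 2.16 CPM. Treml4 reached 209, 119.6 and 338 CPM against 5.42 and 2.88 CPM. For all 3 receptors every Monocyte_3 sum lay far above every Monocyte_1 sum, including the sum of the 4 cells of RTT_ROSA26.

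Ace was the sparsest marker, with 38.0 CPM (4 UMIs) in NTT, 70.4 CPM in RTT_PTGS12KO and 338 CPM in RTT_ROSA26. Monocyte_1 had 0.227 and 0.164 CPM of it. Pou2f2 stood at 266, 288 and 541 CPM against 25.8 and 23.1 CPM. It was the marker with the highest level in Monocyte_1.

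These genes belong to the measurements from which the study made its clusters, so a difference from other clusters is a description. Per cell, at least 1 UMI was found in 25.4% (Ace) to 57.1% (Pou2f2) of the 63 cells. The corresponding range was 0.183% to 16.1% in Monocyte_1 and 0% to 7.02% in NK cells, which should lack most of them and had a median of 9423.5 UMIs. After thinning of every cell to 2000 UMIs, which all 63 cells reached, the ranges were 6.35% to 38.1%, 0.0114% to 4.47% and 0% to 1.71%. In TAM_H2Ab1 macrophages Pou2f2 was found in 39.8% of 630 cells before and 11.3% after thinning, and the other 6 markers in at most 11.9% and 3.33%. The gap was thus present at equal depth.

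**Figure D2:**
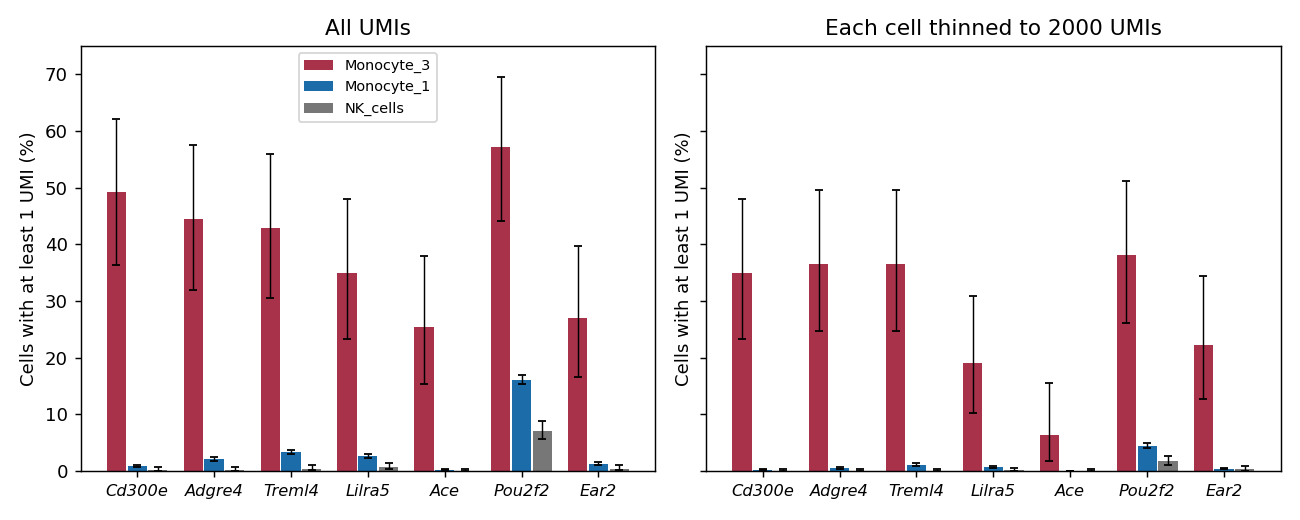
Percentage of cells with at least 1 UMI of each of the 7 defining markers in Monocyte_3 (63 cells), Monocyte_1 and NK cells, for all UMIs (left) and after thinning each cell to 2000 UMIs (right), with exact Clopper-Pearson 95% intervals. Every marker was found in a larger share of Monocyte_3 cells in both panels, from 25.4% for Ace to 57.1% for Pou2f2 before thinning.

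Not every cell with the name showed the markers. Of the 63 cells, 33 had UMIs of 3 or more of the 7 markers, 27 had 1 or 2, and 3 had none, 1 in each of the samples. In RTT_ROSA26 the other 3 cells had 5, 6 and 7 markers. Conversely, 207 cells of any name had 3 or more markers as deposited and 174 of them carried other names. At 2000 UMIs per cell 35 cells had 3 or more, of which 20 were Monocyte_3, 7 Infl_Mono and 8 had other names. Of these 35 cells, 15 were from NTT, 13 from RTT_PTGS12KO, 7 from RTT_ROSA26 and 0 from RTT.

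The population was next set beside Monocyte_1, the main monocyte population, within NTT and within RTT_PTGS12KO, the samples with at least 15 Monocyte_3 cells. Values are log2 ratios of CPM + 5, averaged over both samples, a scale that understates the change of low genes. A gene was called where it differed at least 2-fold in the same direction in both samples. Of 2496 genes with a mean of at least 50 CPM, 113 were higher (4.53%) and 105 were lower (4.21%). The median ratio of all genes was 0.02. With TMM scaling it moved to -0.30 and the calls became 55 higher and 195 lower. Among the gene lists below, TMM scaling turned the sign of 3 medians, to -0.00 for adhesion genes, -0.16 for interferon-gamma-induced genes and -0.21 for MHC class I, which relative to the median of all genes stood at 0.30, 0.14 and 0.10.

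**Figure D3:**
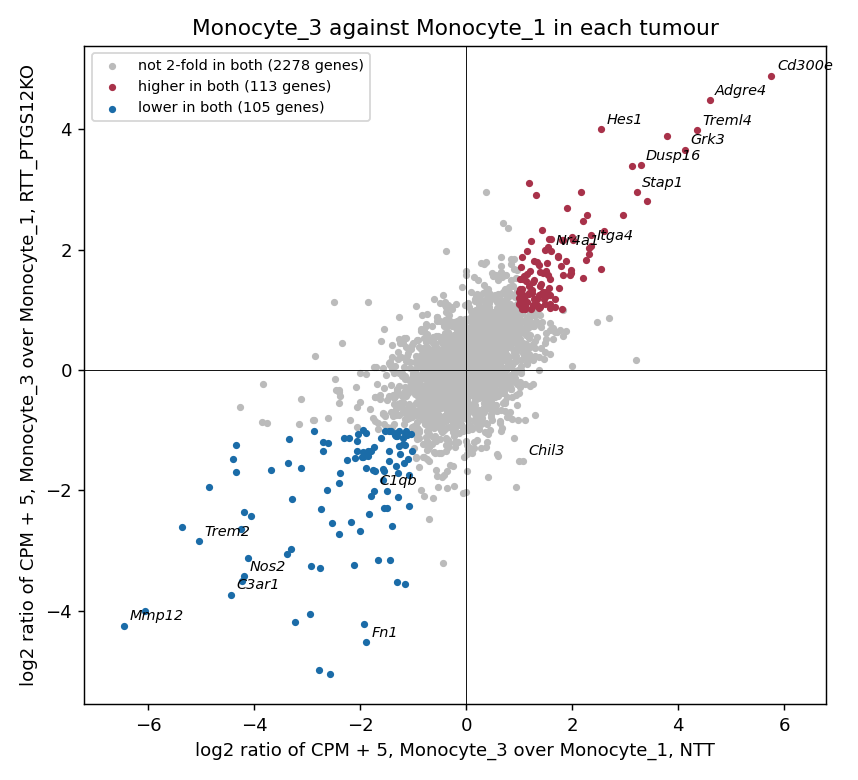
Log2 ratio of CPM + 5 for Monocyte_3 over Monocyte_1 in NTT (horizontal) and in RTT_PTGS12KO (vertical), 1 point per gene for 2496 genes, with genes at least 2-fold higher (113) or lower (105) in both samples in colour. Cd300e, Adgre4 and Treml4 sit at the upper right and Mmp12 and Trem2 at the lower left, and Chil3 is among the genes that went in opposite directions.

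The 5 defining markers with enough UMIs were all among the 113 higher genes, with ratios from 3.26 for Pou2f2 to 5.32 for Cd300e. They define the population and reached the minimum level only through Monocyte_3, so this outcome was fixed in advance and is no support for the name. Grk3, a kinase that desensitises G protein-coupled receptors, stood at 389 and 190.0 CPM in Monocyte_3 of NTT and RTT_PTGS12KO against 17.5 and 10.4 CPM in Monocyte_1 (ratio 3.90). Dusp16, a phosphatase of MAP kinases, stood at 342 and 281 CPM against 30.4 and 22.2 CPM (3.35). Gngt2, a G protein gamma subunit, was the most abundant of the leading genes in UMIs, at 1586 and 1210 CPM against 338 and 215 CPM (2.34).

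For Grk3, Dusp16 and Gngt2 both Monocyte_3 values lay above both Monocyte_1 values. These genes were picked for high ratios in the same samples, so this adds no support. Further leading genes were Cyth3, an exchange factor of ARF proteins (3.10), Stap1, a signalling adaptor (3.08), Adgre5, the adhesion receptor CD97 (2.76), Gsr, glutathione reductase (2.57), Traf1, an adaptor of TNF receptors (2.46), and Dusp2, another MAP kinase phosphatase (2.43). Hes1, a repressor downstream of Notch, had a ratio of 3.27 but differed between the samples, with 76.0 CPM in NTT and 260.3 CPM in RTT_PTGS12KO. Of those 37 UMIs in RTT_PTGS12KO, 17 came from 1 cell.

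Nr4a1, the factor on which non-classical monocytes depend, was higher in Monocyte_3. It reached 304 CPM (208 to 429) in NTT, 401 CPM (304 to 519.6) in RTT_PTGS12KO and 1014 CPM in RTT_ROSA26, against 97.2 and 97.9 CPM in Monocyte_1, 104 and 131 CPM in Infl_Mono and 44.2 and 54.3 CPM in TAM_H2Ab1, a macrophage class of the same tumours. Its relatives stood at 38.0 and 49.2 CPM against 76.9 and 101 CPM (Nr4a2) and at 1 and 1 UMIs (Nr4a3). Nr4a1 is also an early response gene that cell handling can induce. Another of these, Jun, named after its values were seen, had log2 ratios of 0.85 in NTT and 1.76 in RTT_PTGS12KO. Not all such genes followed Jun, with ratios of -0.54 and 0.88 for Atf3 and -0.25 and 0.33 for Btg2. The part of handling was not tested. Of 10 tested transcription factors on the list for non-classical monocytes, Nr4a1 and Pou2f2 were called higher and 0 lower, with a median of 0.54, and 1 was lower with TMM scaling. Pou2f2 is also a defining marker, so its call repeats how the population is defined. Cebpb, which acts upstream of Nr4a1, stood at 2165 and 2315 CPM against 1584 and 1447 CPM, a difference below 2-fold in both samples. Klf2 had 85.5 and 204 CPM against 78.5 and 107 CPM and was not called.

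Among 14 tested genes of chemokine receptors, integrins and adhesion, 4 were called higher and 1 lower, with a median of 0.31, and with TMM scaling 3 of 13 were higher and 1 lower. Itgal, the alpha chain of LFA-1, stood at 484 CPM (361 to 637) in NTT, 514 CPM (403 to 646) in RTT_PTGS12KO and 541 CPM in RTT_ROSA26, against 132 and 111 CPM in Monocyte_1 (1.99). Itga4, the alpha chain of VLA-4, stood at 503, 379.9 and 473 CPM against 94.2 and 87.0 CPM (2.21). Itgb2, the beta chain of LFA-1 and so the partner of Itgal, was close to Monocyte_1, at 569.7 and 450.3 CPM against 511 and 497 CPM (0.01). The 3 Monocyte_3 values of Itgal and of Itga4 lay above both Monocyte_1 values.

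Pecam1, an adhesion molecule of endothelium and leukocytes, was the other gene called higher besides Adgre5, with 85.5 and 155 CPM against 34.7 and 13.6 CPM and 0 UMIs in RTT_ROSA26. Spn, the sialophorin CD43 that is used to sort non-classical monocytes, was below the minimum level, with 94.9 and 63.3 CPM against 4.64 and 4.77 CPM. Cx3cr1, the fractalkine receptor, stood at 94.9 CPM (45.5 to 175) in NTT and 63.3 CPM (29.0 to 120.2) in RTT_PTGS12KO. Monocyte_1 had 10.3 and 32.5 CPM of Cx3cr1, so that it was over 2-fold higher in NTT and not in RTT_PTGS12KO, and TAM_H2Ab1 had more (150.2 and 148 CPM). S1pr5, a receptor for exit from the marrow, was seen as 1 and 5 UMIs, against 1 and 0 in all Monocyte_1 cells of these samples. Ccr1, a receptor for inflammatory chemokines, was called lower, at 19.0 and 127 CPM against 483 and 421 CPM.

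None of 9 tested genes on the survival list was called, beside 4.53% of all genes called higher and 4.21% lower. Their median was 0.41, or 0.10 with TMM scaling. The summed list was above Monocyte_1 in NTT (log2 ratio 0.50, 0.38 to 0.63) and in RTT_PTGS12KO (0.37, 0.25 to 0.48). Csf1r, the receptor for the growth factor CSF1, stood at 569.7 and 584 CPM against 412 and 346 CPM. Among 5 Fc gamma receptor genes 0 were higher and 2 lower, with a median of -0.76. Fcgr4, which is abundant on non-classical monocytes of blood, stood at 750.1 CPM (594 to 935) in NTT and 1189 CPM (1016 to 1382) in RTT_PTGS12KO against 754 and 758 CPM in Monocyte_1, so that it was over Monocyte_1 in RTT_PTGS12KO only and below 2-fold there. Fcgr1, the high-affinity receptor, was lower, at 94.9 and 324 CPM against 729 and 657 CPM, and so was Fcgr3, at 266 and 373 CPM against 775 and 759.6 CPM.

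Classical monocyte markers were mixed. Of 8 tested genes 0 were higher and 1 was lower than in Monocyte_1, with a median of -0.42, and 3 were lower with TMM scaling. The summed list, most of which was Plac8, was within counting error of Monocyte_1 in NTT (log2 ratio 0.08, -0.02 to 0.18) and higher in RTT_PTGS12KO (0.70, 0.62 to 0.78). Ly6c2, which defines classical monocytes and has close copies, stood at 532 CPM (402 to 690.5) in NTT and 689 CPM (559.8 to 840.3) in RTT_PTGS12KO against 2229 and 1342 CPM, and RTT_ROSA26 had 1 UMI in 4 cells. The difference fell just short of 2-fold in RTT_PTGS12KO, so Ly6c2 was not called. Ccr2 stood at 152 and 401 CPM against 326 and 449.7 CPM, and the gene called lower was Fn1, fibronectin, with 2 and 2 UMIs in Monocyte_3.

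Plac8 went the other way, at 6210 and 7127 CPM against 3868 and 2438 CPM. Against Infl_Mono, the monocytes richest in interferon-stimulated genes, 77 of 2517 genes were higher (3.06%) and 127 lower (5.05%) at a median of 0.00 over all genes. With TMM scaling these were 34 and 216, and the median of all genes moved to -0.35. There, 6 of 9 classical markers were lower (median -2.29), including Ly6c2 (3499 and 2893 CPM in Infl_Mono) and Vcan, the proteoglycan versican (1 and 0 UMIs in Monocyte_3 against 115 and 401 CPM).

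The genes furthest below Monocyte_1 were led by Mmp12. Mmp12, macrophage elastase, had 0 UMIs in the 26 cells of NTT, 1 in the 33 cells of RTT_PTGS12KO and 0 in RTT_ROSA26, against 433 and 224 CPM in Monocyte_1. Nos2, inducible nitric oxide synthase, had 1 and 2 UMIs against 259 and 200.1 CPM. At these counts the genes were near the limit of detection in Monocyte_3.

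C3ar1, a complement receptor, Trem2, a lipid receptor of macrophages, and the chemokine Ccl12 were likewise low, with 1 and 2, 0 and 3, and 3 and 3 UMIs in NTT and RTT_PTGS12KO. Ccl2, which recruits classical monocytes, stood at 57.0 and 49.2 CPM against 469 and 900.0 CPM. Of 11 tested inflammatory mediators 1 was higher (Tgfb1) and 4 lower, with a median of -0.36, and with TMM scaling 0 were higher and 5 lower (-0.68). Il1b was abundant in both populations, at 4947 and 3588 CPM against 3468 and 2438 CPM.

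Of 7 tested macrophage markers 0 were higher and 4 lower than in Monocyte_1 (median -1.86), and 0 were higher and 2 lower than in Infl_Mono (-1.04). Apoe, a member of this list, went apart from the others, with a log2 ratio against Monocyte_1 of -1.06 in NTT and 0.36 in RTT_PTGS12KO. It made up 31.0% of the list's UMIs in NTT and 66.0% in RTT_PTGS12KO, so the list was also summed without it, a choice made after its values were seen. Against Monocyte_1 the summed list had log2 ratios of -1.67 in NTT and -0.98 in RTT_PTGS12KO, or -1.88 and -2.10 without Apoe. Against Infl_Mono in RTT_PTGS12KO the ratio was -0.08 (-0.21 to 0.05), or -0.90 (-1.12 to -0.68) without Apoe. Against TAM_H2Ab1, 171 of 2550 genes were higher (6.71%) and 134 lower (5.25%) at a median of 0.01 over all genes, 104 and 185 with TMM scaling, and 9 of 9 macrophage markers were lower (median -3.11). Of 8 complement genes 5 were lower than in Monocyte_1 (median -1.89), or 6 with TMM scaling, and so were 3 of 5 lipid and scavenger genes (-1.95). Apoe made up 81.6% and 86.0% of the UMIs of the lipid and scavenger list in NTT and RTT_PTGS12KO. The summed list had log2 ratios against Monocyte_1 of -1.56 in NTT and -0.06 (-0.21 to 0.08) in RTT_PTGS12KO, and without Apoe of -2.74 and -1.41. Against Infl_Mono in RTT_PTGS12KO the ratio was 0.32 (0.17 to 0.46), and without Apoe -0.83 (-1.24 to -0.45). C1qb, a chain of complement C1q, stood at 598 and 584 CPM against 5361 and 4957 CPM in TAM_H2Ab1.

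In droplet data, free RNA adds UMIs to cells that do not express a gene. UMIs per NK cell and per CD8 T cell, types that should lack most myeloid genes, are therefore given beside some values, but these cells were deeper, their means can rest on few cells, and how much of any value is free RNA was not tested. C1qb was found at 2.42 UMIs per Monocyte_3 cell in NTT (1.86 to 3.10) and 2.52 per NK cell (2.40 to 2.64), and at 2.52 (2.00 to 3.12) and 5.80 (5.54 to 6.08) in RTT_PTGS12KO. CD8 T cells held 3.56 and 3.78 UMIs. Monocyte_3 thus carried no more C1qb per cell than these types did, from cells with fewer UMIs.

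Markers of other cell types were at or near 0 except those of neutrophils. T cell, mast cell and melanoma markers had 0 UMIs in NTT and RTT_PTGS12KO. Summed CPM of NK cell markers were 19.0 and 7.04, of dendritic cell markers 57.0 and 21.1, of B cell markers 19.0 and 0, and of platelet, stromal and erythroid markers at most 7.04. Of the cell cycle list (S phase and mitosis) 2 genes were tested and 0 called, with a median of -0.35. Neutrophil markers summed to 503 and 324 CPM against 297 and 235 in Monocyte_1, and none of the 3 tested was called.

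Antigen presentation genes were abundant in Monocyte_3 of NTT and RTT_PTGS12KO. The MHC class II list summed to 17186 CPM (16403 to 17996) in Monocyte_3 of NTT and 15936 CPM (15286 to 16606) in RTT_PTGS12KO, against 23018 and 17450 CPM in Monocyte_1. None of 7 tested genes was called against Monocyte_1 (median -0.25), nor was any of 11 genes of MHC class I and the immunoproteasome (0.11). With TMM scaling 1 of the 7 was lower (-0.57) and 0 of the 11 were called. H2-Aa, an MHC class II alpha chain, was found at 20.7 UMIs per Monocyte_3 cell in NTT (18.9 to 22.5) and 19.6 in RTT_PTGS12KO (18.2 to 21.2). These values were above the 5.76 and 7.38 UMIs per NK cell and the 9.02 and 3.8 per CD8 T cell. They were below the 42.8 and 21.7 UMIs per neutrophil, and the part of free RNA was not tested.

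The 4 cells of RTT_ROSA26 differed in this respect. Their MHC class II list summed to 743 CPM (371 to 1330, 11 UMIs), and H2-Aa was seen as 3 UMIs in 4 cells. Interferon-gamma-induced genes, among them the guanylate-binding proteins, summed to 608 CPM (278 to 1154) there, against 6570 in NTT and 5150 in RTT_PTGS12KO. MHC class I genes were closer, at 13446 CPM (11643 to 15449) against 19123 and 16161. Their summed defining markers, at 2703 CPM (1931 to 3680), exceeded the 1244 of NTT and 1034 of RTT_PTGS12KO.

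Other monocytes of RTT_ROSA26 and of RTT gave a partial parallel. The MHC class II list summed to 3132 CPM in Infl_Mono of RTT_ROSA26 and 5142 CPM in RTT, against 18618 in NTT and 8567 in RTT_PTGS12KO. In Monocyte_1 it was 9980 CPM in RTT_ROSA26 and 18145 in RTT. Interferon-gamma-induced genes stood at 3978 CPM in Infl_Mono of RTT_ROSA26 and 5065 CPM in RTT, against 6744 in NTT and 8627 in RTT_PTGS12KO. In Monocyte_1 they stood at 6453 CPM in RTT_ROSA26, beside 5496 to 6007 CPM in the other samples. With 4 cells from 1 sample, the sample, the number of cells and the choice of these cells by clustering cannot be told apart.

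Monocyte_3 cells varied widely in MHC class II. The share of a cell's UMIs on the list ranged from 0.0616% to 3.73% in NTT (median 1.54%) and from 0.0301% to 3.98% in RTT_PTGS12KO (median 1.09%), and from 0% to 0.128% in RTT_ROSA26. Only 2 of 26 cells of NTT and 2 of 33 of RTT_PTGS12KO were at or below the highest of the 4 RTT_ROSA26 cells. Across cells, the share went down as the share of the defining markers went up, with a Spearman rho of -0.50 in RTT_PTGS12KO (33 cells) and -0.23 in NTT (26 cells), where shares of the same total UMIs enter on both axes. It was also higher in deeper cells, with rho of 0.26 and 0.51 against total UMIs in the same order. These are descriptions over cells of 1 sample each.

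**Figure D4:**
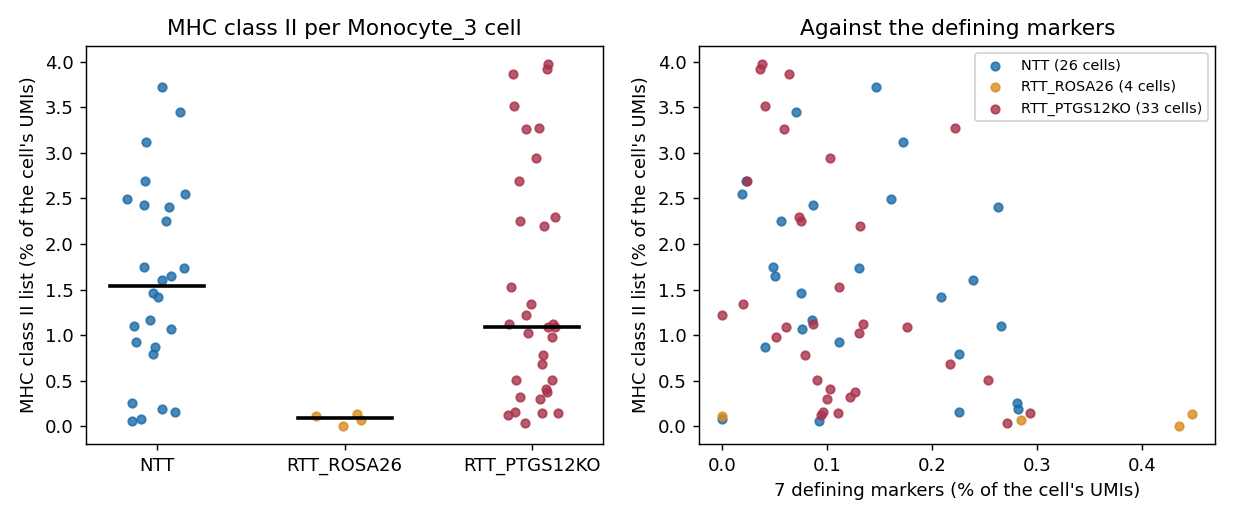
MHC class II list as a percentage of each cell's UMIs in the 63 Monocyte_3 cells by sample (left, 1 point per cell, horizontal bars at the medians) and against the percentage of UMIs on the 7 defining markers (right). The 4 RTT_ROSA26 cells lie between 0% and 0.128%, while NTT reaches 3.73% and RTT_PTGS12KO 3.98%.

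Type I interferon-stimulated genes were far below Infl_Mono. Of 17 tested type I genes 14 were lower and 0 higher than in Infl_Mono (median -2.31). Against Monocyte_1, 1 of 10 was lower (Rsad2) and 0 higher (median -0.60). Isg15, a ubiquitin-like interferon target, stood at 256 and 359 CPM in Monocyte_3 against 1883 and 1226 CPM in Infl_Mono, and Rsad2, the antiviral enzyme viperin, at 47.5 and 28.1 against 679.5 and 588 CPM. Infl_Mono cells lead with these genes, so the difference repeats what that cluster is made of. Of 14 tested interferon-gamma-induced genes 1 was higher (Gbp5) and 1 lower (Cxcl9) than in Monocyte_1 (median 0.15), whereas with TMM scaling 0 were higher and 1 was lower. Gbp2 stood at 1329 and 1266 CPM against 848 and 1137 CPM.

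Of 7 tested genes for the attraction and stimulation of T cells 0 were higher and 1, Cxcl9, was lower than in Monocyte_1 (median -0.12). With TMM scaling 3 of 8 were lower and the median was -0.71, or -0.41 relative to all genes. Cxcl9, a chemokine for T cells, stood at 513 CPM (385 to 669) in NTT and 331 CPM (243 to 439.7) in RTT_PTGS12KO, against 1084 and 1610 CPM in Monocyte_1. Per cell it was at 2.08 UMIs (1.56 to 2.71) in NTT and 1.42 UMIs (1.05 to 1.89) in RTT_PTGS12KO, against 1.15 and 1.53 in NK cells and 0.828 and 3.56 in CD8 T cells. It was found in 23.1% and 36.4% of Monocyte_3 cells, against 11.4% and 12.7% of NK cells and 11.8% and 11.1% of the CD8 T cells, both at higher depth. Cxcl10, another such chemokine, stood at 475 and 514 CPM, with 1.92 and 2.21 UMIs per Monocyte_3 cell against 0.870 and 5.06 in NK cells and 1.18 and 1.49 in CD8 T cells. It was found in 26.9% and 36.4% of Monocyte_3 cells, in 21.7% and 28.8% of NK cells and in 25.8% and 33.3% of CD8 T cells. Il15, a cytokine that sustains T cells, was seen as 3 and 1 UMIs, and Cd274, the ligand PD-L1, stood at 798 and 478 CPM against 526 and 306 CPM.

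Within Monocyte_3, NTT was compared with RTT_PTGS12KO, the samples with the most cells. Of 1396 genes with a mean of at least 100 CPM, 58 were at least 2-fold higher in NTT (4.15%) and 54 at least 2-fold lower (3.87%). A gene was called here where, besides this fold, its counting interval left out equality, which keeps out ratios that rest on few UMIs. This is a rule of size and counting error, not a test, and with 1 sample per group it compares these libraries and not the conditions. In NTT, 50 genes were called higher (3.58%) and 46 lower (3.3%), at a median of 0.02 over all genes, and with TMM scaling 34 were higher and 50 lower. The intervals treat UMIs as independent, and single cells weighed heavily. When the cell with most UMIs of a gene was left out of the sample where the gene was higher, 27 of the 50 and 26 of the 46 genes were still at least 2-fold apart. Defining markers did not differ by this rule in any of the 5 tested.

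Genes higher in NTT included Ptgs2, the inducible cyclooxygenase that makes prostaglandins. It stood at 513 CPM (385 to 669) in NTT, 56.3 CPM (24.3 to 111) in RTT_PTGS12KO and 0 UMIs in RTT_ROSA26, a log2 ratio of 3.08 (2.11 to 4.47). The 54 UMIs of NTT came from 7 of 26 cells, 20 of them from 1 cell, and 8 UMIs in RTT_PTGS12KO came from 5 of 33 cells. Without that cell the ratio was 2.51. In Monocyte_1, Ptgs2 had a ratio of 0.30 (692 and 563 CPM), and Monocyte_3 held 2.08 and 0.242 UMIs per cell against 0.542 and 0.856 in NK cells and 1.99 and 0.822 in CD8 T cells. The knockout was made in the cancer cells and does not reach the Ptgs2 gene of host monocytes. Of the prostaglandin list, 1 gene could be tested against Monocyte_1 and was not called.

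Nr1h3, the oxysterol receptor LXR alpha, stood at 266 and 14.1 CPM (3.83, 2.25 to 7.35), with 10 of its 28 UMIs in NTT in 1 cell. Cxcl2, a neutrophil chemokine, stood at 1196 and 176 CPM (2.73, 2.14 to 3.45) and at 2635 CPM in RTT_ROSA26, and 59 of 126 UMIs in NTT were in 1 cell, without which the ratio was 1.86. Monocyte_3 held 4.85 and 0.758 UMIs of Cxcl2 per cell, against 2.79 and 4.48 in NK cells and 14.0 and 8.76 in CD8 T cells. Rel, an NF-kappa B subunit, stood at 646 and 155 CPM (2.03, 1.35 to 2.83) in 20 of 26 and 16 of 33 cells. No cell held more than 13 UMIs of Rel, and its ratio in Monocyte_1 was 0.35.

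Other leading genes in NTT were Psmc2, a proteasome subunit (2.83), H2-M3, a class I molecule for formylated peptides (2.56), Upp1, uridine phosphorylase (2.18), Denr, a factor for translation re-initiation (1.99), and Arl5c, a small GTPase (1.85). The chemokine Ccl5, at 2412 and 732 CPM, had a ratio of 1.71, and one of 1.63 in Monocyte_1. That ratio was therefore shared with the larger population of the same tumours. Over the 50 genes the median ratio in Monocyte_1 was 0.31, beside 0.02 for all genes.

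Genes lower in NTT included lipoproteins. Apoe stood at 589 CPM (451 to 755) in NTT, 2413 CPM (2165 to 2683) in RTT_PTGS12KO and 3176 CPM in RTT_ROSA26 (-2.03, -2.45 to -1.64). It is abundant in macrophages, and Monocyte_3 held 2.38 and 10.4 UMIs per cell against 5.28 and 8.73 in NK cells and 6.87 and 12.8 in CD8 T cells. Apoc2 stood at 123 and 872 CPM and 1081 CPM in RTT_ROSA26 (-2.77, -3.77 to -1.99), in 10 of 26 and 22 of 33 cells. Its 3.76 UMIs per cell in RTT_PTGS12KO stood above the 0.294 of NK cells, 0.6 of CD8 T cells and 1.33 of neutrophils. The 4.00 in RTT_ROSA26 (2.29 to 6.50) stood beside 0.962 in NK cells, 3.92 in neutrophils and 6 UMIs in 2 CD8 T cells (1.10 to 6.53 per cell).

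Apoc2 and Apoe were thus high in RTT_PTGS12KO and RTT_ROSA26 and low in NTT. In RTT_ROSA26, Apoe was at 11.8 UMIs per Monocyte_3 cell and 76.7 per NK cell. The macrophage markers without Apoe summed to 1310 CPM in NTT (1101 to 1548), 1245 CPM in RTT_PTGS12KO (1069 to 1443) and 1351 CPM in RTT_ROSA26 (825 to 2087), intervals that overlap. Fcgr1 (-1.72), the scavenger receptor Msr1 (-1.84), the cytokine receptor Il17ra (-2.33) and Ccr2 (-1.37) were lower in NTT as well. Il17ra was spread over 18 of 33 cells in RTT_PTGS12KO and found in 4 of 26 in NTT.

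Hspa1b, a heat-shock protein that rises with stress and tissue digestion, stood at 418 CPM in NTT, 1752 CPM in RTT_PTGS12KO and 1351 CPM in RTT_ROSA26 (-2.06, -2.57 to -1.60). In Monocyte_1 its ratio was -0.50, from 238 and 338 CPM. Monocyte_3 held 1.69 and 7.55 UMIs of it per cell, against 2.02 and 4.83 in NK cells. Hspa1a (-1.03) and Dnaja1 (-1.08), other heat-shock genes, were also called lower in NTT, but were below 2-fold without the top cell. The part of cell stress in the other differences was not tested. Over the 46 genes lower in NTT the median ratio in Monocyte_1 was -0.03.

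**Figure D5:**
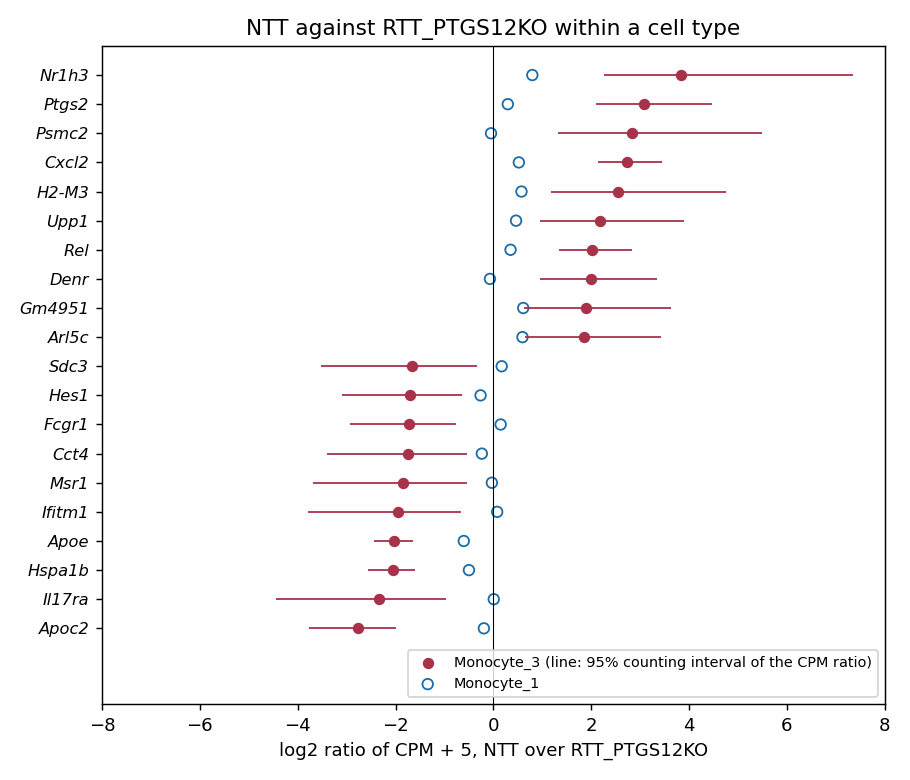
Log2 ratio of CPM + 5 for NTT over RTT_PTGS12KO of the 10 highest and the 10 lowest called genes in Monocyte_3 (filled points, lines show the 95% counting interval of the CPM ratio) and in Monocyte_1 (open points). The Monocyte_3 ratios reach 3.83 for Nr1h3 and -2.77 for Apoc2, and the open points lie nearer to 0. The genes were picked for their Monocyte_3 ratios, so nothing is read from the smaller ratios in Monocyte_1.

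The promoters (the 250 bases before the start) of the genes leading against Monocyte_1 were searched for the binding motifs of Nr4a1 (AAAGGTCA) and Pou2f2 (ATGCAAAT) on both strands. RefSeq promoters were given for 9 of the 15 leading genes, and neither motif was found in them, which says only that these letters were not in those windows. Among all 27025 genes with a promoter the motifs were found in 1.55% and 1.81%.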

How the data were processed

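The data were droplet 3' UMI counts of 33368 CD45+ cells in 4 samples, 1 per group, so no replicate spread exists and no test was made. The deposited counts were made by the authors with Cell Ranger on mm10 and filtered and clustered with Seurat 4.3.0 (more than 1000 genes detected, mitochondrial UMIs below 15% and ribosomal ones below 40%, limits that every cell met). Cells were taken by the authors' name Monocyte_3. Of the barcode sequences, 75 occurred in 2 or more samples and 0 of them within 1 load.

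UMIs were summed per sample and name, scaled to CPM and compared within NTT and within RTT_PTGS12KO, the samples with at least 15 Monocyte_3 cells, as log2 ratios of CPM + 5. Shares had exact Clopper-Pearson intervals, sums exact Poisson intervals and ratios exact conditional binomial intervals of the CPM ratio, all for counting error only. Doublets were not removed. Scrublet (scanpy 1.11.5) marked 1 of 33368 cells and so had not worked, and leaving out the highest 5% of its scores was an alternative. Other alternatives were pseudocounts of 1 and 20 CPM, no minimum level, TMM factors (edgeR 4.0.16, R 4.3.3), means over cells, stricter cells, cells with at least 3 defining markers and pooled samples. Thinning to 2000 UMIs, ratios of shares by markers, leaving out the cell with most UMIs of a gene, counting genes by fold alone and sums without Apoe were chosen after seeing the data. Python 3.11.15, numpy 2.4.6, scipy 1.17.1, pandas 2.3.3 and matplotlib 3.10.9 were used, and the scripts were checked on simulated data.

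The members and gene lists were chosen with earlier results of these data known. List members could be named, besides the 15 highest and 10 lowest ratios against Monocyte_1 (at least 100 CPM in the higher population) and the 10 highest and 10 lowest called ratios between NTT and RTT_PTGS12KO. Ccl5 and other genes outside these were named after their values were seen. Coordinates are of GRCm38, the build named mm10 in the labels. Symbols were used as deposited, and 1 listed gene was not in the table.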

Additional observations from a re-analysis of the deposited data

Results flagged for a closer look

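Apoe, Cd74, Chil3 and Psmc2 went in opposite directions against Monocyte_1 in NTT and in RTT_PTGS12KO, and these differences between the samples were not tested. The log2 ratio of Apoe was -1.06 in NTT and 0.36 in RTT_PTGS12KO. That of Cd74, the invariant chain of MHC class II, was -0.48 and 0.24, and that of Psmc2 was 0.94 and -1.94. Chil3, a chitinase-like protein of classical monocytes, stood at 1.08 in NTT and -1.51 in RTT_PTGS12KO. The NTT value of Chil3 rests on 20 UMIs in 3 of 26 cells, 13 of them in 1 cell, and without that cell the ratio of NTT to RTT_PTGS12KO went from 1.24 to -0.17.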

How the results depend on the processing

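No paired analysis was possible because the groups of samples have 1 sample each. Cell populations were compared within samples, which pairs them by sample, and no test was made of them because their names came from clustering the same cells. Cells of any name with at least 3 markers came to 0.75% in NTT, 0.835% in RTT_PTGS12KO, 0.226% in RTT and 0.6% in RTT_ROSA26. Monocyte_3 cells with at least 3 markers made up 0.169% of NTT and 0.155% of RTT_PTGS12KO. With over 1500 genes and under 10% mitochondrial UMIs required, the shares were 0.127% in NTT, 0.0156% in RTT_ROSA26 and 0.154% in RTT_PTGS12KO. Of monocytes, they were 2.78% in RTT_ROSA26 and 0.822% in RTT_PTGS12KO. Against Monocyte_1, 74 genes were higher with a pseudocount of 20 CPM, 170 with only cells of at least 3 markers, 297 (and 611 lower) with no minimum, 55 (195 lower) with TMM and 183 (164 lower) with pooled samples. Against Infl_Mono, the corresponding counts were 51, 135, 254 (508 lower), 34 (216 lower) and 139 (195 lower). Against TAM_H2Ab1, they were 378 (777 lower) with no minimum, 104 higher with TMM and 283 (219 lower) pooled. Between NTT and RTT_PTGS12KO, 116 were higher and 101 lower with no minimum, and 27 and 26 were still apart with the top cell of a gene left out. Cells with defining markers fell from 207 to 46 at 5000 UMIs, where 46 Monocyte_3 cells were too shallow to enter, and to 35 at 2000. With only cells of at least 3 markers, the ratio of NTT to RTT_PTGS12KO turned from 1.24 to -1.12 for Chil3 and from -1.21 to 0.19 for Klf2. With the top cell left out it turned to -0.173 for Chil3 and, for Slpi, a gene not otherwise named here and higher in NTT, to -0.11. The causes were not tested. Of the values of the genes that could be named, under all alternatives, 4935 held, 186 moved and 3 turned. RTT_ROSA26 gave 4 cells with 14800 UMIs in all, and its values are given with no call.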
